A study of Mus musculus with 21 samples.

Results

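The cluster of miR-200b, miR-200a and miR-429 is a group of 3 miRNA hairpins on mouse chromosome 4, each of which gives a 3p and a 5p strand. Its 6 members, miR-200b-3p, miR-200b-5p, miR-200a-3p, miR-200a-5p, miR-429-3p and miR-429-5p, were chosen by name as both arms of the 3 hairpins, with any mmu- prefix removed, in all 6 deposited tables. They are 6 of 1909 names listed for the virgin cohort, 1841 listed for the breeding trial cohort and 1816 listed for both.

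Small RNA was sequenced from whole pituitaries of adult female C57BL/6J mice that were WT, heterozygous (*Zeb1 200H*) or homozygous (*Zeb1 200M*) for a *Zeb1* allele whose miR-200a/b target sites carry point mutations. By the paper, tissue of both cohorts was taken at proestrus, as staged by vaginal cytology. The virgin cohort, aged 8–12 weeks, holds 3 WT, 4 *Zeb1 200H* and 4 *Zeb1 200M* libraries, and the breeding trial cohort, aged 28–36 weeks, holds 4, 3 and 3. The allele was studied in mouse lines from a pair of independent embryonic stem cell clones, both used in each cohort, and the labels do not say which library came from which line. Virgin littermates shared cages, while breeding trial mice were caged singly for cycle staging and with a male during the trial, so the cohort stands for age, breeding history, housing, RNA input, added yeast RNA, purification, sequencer, dictionary and, by the sample labels, adapters together, which cannot be told apart.

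The cluster's 3p strands are the guides that are loaded into Argonaute in the larger amounts, and its 5p strands are the passengers. MiR-200b-3p and miR-429-3p share their seed with miR-200c-3p, and miR-200a-3p shares its seed with miR-141-3p, both of which come from a separate cluster on another chromosome. ZEB1 binds E-box sequences of promoters, and the miR-200 loci are among its described targets.

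The 6 members together took 2.54 ± 0.0591% of counted reads in WT (SD, n = 4), 0.443 ± 0.0388% in *Zeb1 200H* and 0.378 ± 0.0307% in *Zeb1 200M* (SD, n = 3 each) of the breeding trial cohort. In the virgin cohort the cluster took 2.07 ± 0.350% in WT (SD, n = 3), 0.441 ± 0.0442% in *Zeb1 200H* and 0.317 ± 0.0164% in *Zeb1 200M* (SD, n = 4 each), and WT replicates 2 and 4 alone had a mean of 2.27%. Every WT library held more of the cluster than every mutant library of its cohort. In bulk samples, fewer cells of a type and less RNA per cell cannot be told apart.

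Virgin WT replicate 1 stood apart from the other virgin libraries, also within the cluster. In CPM, it held 0.584 of the mean of WT replicates 2 and 4 for miR-200b-3p and 0.549 for miR-429-3p, but 0.954 for miR-200a-3p. TMM gave it a factor of 0.616 and the remaining virgin libraries factors from 0.943 to 1.119, so these ratios depend on the scaling. In TMM-scaled CPM, replicates 1, 2 and 4 had 8964, 10162 and 9492 of miR-200b-3p, 3450, 4116 and 3930 of miR-429-3p, and 14374, 9729 and 9565 of miR-200a-3p, so that miR-200a-3p was high in replicate 1. In CPM, its 5p strands lay above both other WT libraries, at ratios of 1.17 for miR-200b-5p, 1.35 for miR-200a-5p and 2.35 for miR-429-5p. Fold changes, calls and percents of WT in the virgin cohort are therefore also given without this library.

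**Figure D1:**
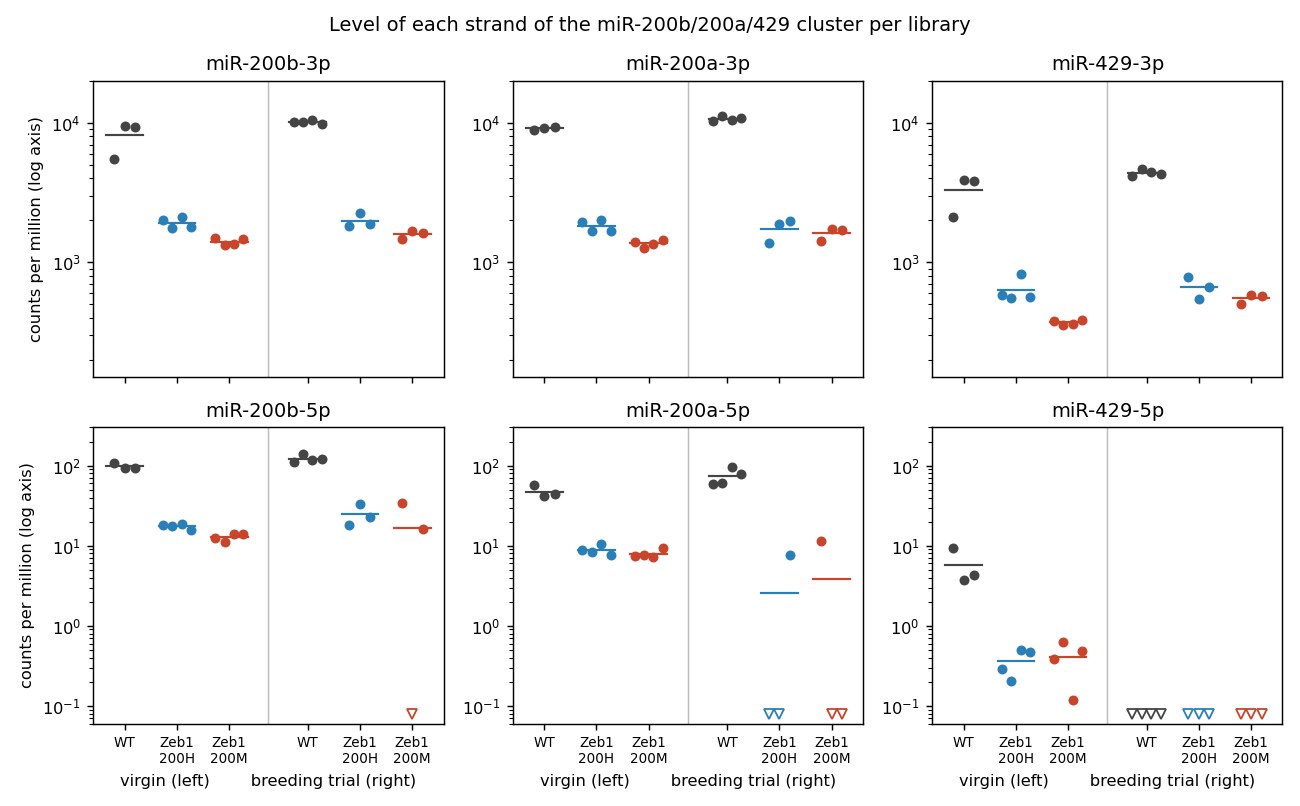
Level of each of the 6 strands in every library, in CPM of the library's counted reads, on a log axis. Bars mark group means, and open triangles mark libraries with 0 counts.

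MiR-200b-3p was counted in the breeding trial WT libraries at 10217, 10085, 10476 and 9789 CPM, in *Zeb1 200H* at 1818, 2265 and 1888 CPM, and in *Zeb1 200M* at 1472, 1683 and 1612 CPM. The WT libraries were high, the mutant libraries were low without overlap, and each *Zeb1 200M* library also lay below each *Zeb1 200H* library. MiR-200a-3p stood at 10308, 11208, 10512 and 10796 CPM in WT, at 1373, 1882 and 1972 CPM in *Zeb1 200H*, and at 1414, 1739 and 1718 CPM in *Zeb1 200M*. WT was again high without overlap, while the ranges of both mutant genotypes overlapped. MiR-429-3p was at 4167, 4669, 4447 and 4279 CPM in WT, at 782, 549.7 and 670.1 CPM in *Zeb1 200H*, and at 502, 579.8 and 570.0 CPM in *Zeb1 200M*. Its WT libraries lay apart from all mutant libraries, and the mutant genotypes overlapped.

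For *Zeb1 200M* against WT in the breeding trial cohort, edgeR called all 4 members that passed its expression filter, each lower, against 99 of all 276 miRNAs tested (35.9%, 56 higher and 43 lower, and 123 at an unadjusted p below 0.05). Of the 4, miR-200b-5p had 10 to 23 reads in WT and 0 to 3 in mutant libraries. It passed the filter through WT alone. Its part in the counts and medians, here and for *Zeb1 200H*, thus depends on the group where it was high. The log2 fold change was −2.90 for miR-200b-3p (SE 0.107, edgeR, Benjamini-Hochberg adjusted p = 4.5e-18), with 15.7% of the WT mean CPM left. For miR-200a-3p it was −2.94 (SE 0.109, edgeR, adjusted p = 4.5e-18), with 15.2% left. MiR-429-3p had the lowest value of the guides at −3.21 (SE 0.127, edgeR, adjusted p = 1.58e-17), with 12.5% left. All 3 guides were lower in 3 of 3 *Zeb1 200M* libraries than in any WT library, and by edgeR p they ranked 3, 4 and 5 of the 276 miRNAs tested. The share of all miRNAs that parted their groups in this way is not given. The same holds for the other statements on groups without overlap, which are descriptions. The median log2 fold change was −3.05 over the 4 members tested and 0.00 over all miRNAs tested.

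For *Zeb1 200H* against the same WT libraries, edgeR also called 4 of the 4 members tested, each lower, against 32 of all 267 miRNAs tested (12.0%, 13 higher and 19 lower; 73 at an unadjusted p below 0.05). MiR-200b-3p had a log2 fold change of −2.53 (SE 0.124, edgeR, adjusted p = 5.66e-14) and 19.6% of the WT mean CPM. MiR-200a-3p had −2.80 (SE 0.135, edgeR, adjusted p = 5.66e-14) and 16.3%, and it ranked first by p among all miRNAs tested. MiR-429-3p had −2.86 (SE 0.151, edgeR, adjusted p = 2.07e-13) and 15.2%. The median was −2.66 over the members tested and 0.00 over all miRNAs tested.

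Between the mutant genotypes of the breeding trial cohort, edgeR called 0 of the 3 members tested (0 by DESeq2), against 3 of all 274 miRNAs tested (1.09%; 40 at an unadjusted p below 0.05). The count of all miRNAs ranged from 3 to 5 when each library was left out. *Zeb1 200M* minus *Zeb1 200H* was −0.35 for miR-200b-3p (SE 0.159, edgeR, adjusted p = 0.267), lower without overlap in 3 of 3 libraries. It was −0.13 for miR-200a-3p (SE 0.161, edgeR, adjusted p = 0.747) and −0.34 for miR-429-3p (SE 0.199, edgeR, adjusted p = 0.437), with overlapping groups for both. The guides of the other cluster, miR-200c-3p at −1.28 (edgeR, adjusted p = 1.37e-12) and miR-141-3p at −1.02 (edgeR, adjusted p = 2.28e-08), were called in the same fit. With the replicate number as a block, which leaves 2 pairs, edgeR called 0 of 264 miRNAs (29 at an unadjusted p below 0.05; the block was not fitted in DESeq2), with adjusted p values of 0.0789 for miR-200c-3p and 0.304 for miR-141-3p.

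In the virgin cohort, miR-200b-3p was counted at 5518, 9584 and 9305 CPM for WT replicates 1, 2 and 4, at 2008, 1774, 2116 and 1801 CPM in *Zeb1 200H*, and at 1487, 1332, 1345 and 1469 CPM in *Zeb1 200M*. The 3 groups did not overlap, with WT highest and *Zeb1 200M* lowest. MiR-200a-3p stood at 8849, 9176 and 9377 CPM in WT, at 1943, 1687, 1998 and 1692 CPM in *Zeb1 200H*, and at 1403, 1278, 1350.5 and 1446 CPM in *Zeb1 200M*. Its 3 groups lay in the same order without overlap. MiR-429-3p stood at 2124, 3881 and 3852 CPM in WT, at 587, 551, 824 and 563 CPM in *Zeb1 200H*, and at 377, 356, 363 and 389 CPM in *Zeb1 200M*. The order of groups was again WT, *Zeb1 200H*, *Zeb1 200M* without overlap, and *Zeb1 200H* replicate 3 was the highest mutant library.

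For *Zeb1 200M* against WT in the virgin cohort, edgeR called 6 of 6 members, each lower, against 44 of all 678 miRNAs tested (6.49%). For *Zeb1 200H* against the same WT libraries it called 6 of 6, each lower, against 34 of all 672 (5.06%). MiR-429-5p, with 36 to 40 reads in WT and 1 to 6 in mutant libraries, passed the filter of these fits through WT alone. Its part in the counts and medians thus depends on the group where it was high. Without WT replicate 1, the members' counts were 6 of 6 in both, against 168 of 703 (23.9%) and 151 of 699 (21.6%). Of the WT mean CPM, miR-200b-3p kept 17.3%, miR-200a-3p 15.0% and miR-429-3p 11.3% in *Zeb1 200M*, and in *Zeb1 200H* they kept 23.7%, 20.03% and 19.2%. Relative to WT replicates 2 and 4 alone, these shares were 14.9%, 14.8% and 9.60% in *Zeb1 200M* and 20.4%, 19.7% and 16.3% in *Zeb1 200H*. In *Zeb1 200M*, log2 fold changes of these guides were −2.89, −3.16 and −3.49 with all WT libraries and −2.90, −2.92 and −3.54 without WT replicate 1. In *Zeb1 200H* they were −2.38, −2.69 and −2.67, and −2.42, −2.47 and −2.74 without it. The median over the 6 members was −3.27 for *Zeb1 200M* and −2.76 for *Zeb1 200H*, and the medians over all miRNAs tested were −0.00 and 0.01. Without WT replicate 1, the members' medians were −2.97 and −2.50, and those of all miRNAs tested 0.04 and 0.01. Comparisons of both mutant genotypes with WT share the WT libraries of their cohort, so each comparison's own values are given.

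Between the mutant genotypes of the virgin cohort, which share no WT library, edgeR called 3 of the 5 members tested, all lower in *Zeb1 200M*, against 15 of all 675 miRNAs tested (2.22%, 5 higher and 10 lower; 63 at an unadjusted p below 0.05). The log2 fold change was −0.51 for miR-200b-3p (SE 0.0851, edgeR, adjusted p = 0.00704), lower in 4 of 4 libraries. For miR-200a-3p it was −0.47 (SE 0.0857, edgeR, adjusted p = 0.00864), and for miR-429-3p −0.82 (SE 0.126, edgeR, adjusted p = 0.00408), each lower in 4 of 4 libraries. Without *Zeb1 200H* replicate 3, the value for miR-429-3p was −0.65 and was still called. In the same fit, miR-200c-3p had −1.24 and miR-141-3p −1.22 (edgeR, adjusted p = 1.14e-06 for both), so both guides of the other cluster lay further from 0 than the 3 guides of this cluster. When the 3 genotypes were fitted together, edgeR called miR-429-3p alone among the members (adjusted p = 0.0288), with 0.0677 for miR-200b-3p and 0.434 for miR-200a-3p. Of the other cluster's guides, that fit called miR-141-3p (edgeR, adjusted p = 0.0232) and not miR-200c-3p (edgeR, adjusted p = 0.121).

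As a test of the cohort difference itself, the interaction of cohort and genotype in edgeR called 0 members for *Zeb1 200M* against WT, against 0 of all 566 miRNAs tested (0%; 44 at an unadjusted p below 0.05, of which 0 were members; 0 by DESeq2). For *Zeb1 200H* against WT it called 0 members as well, against 0 of all 566 (0%; 49 at an unadjusted p below 0.05, of which 0 were members; 0 by DESeq2). Breeding trial minus virgin, the log2 fold change of *Zeb1 200M* differed by −0.01 for miR-200b-3p (SE 0.163), 0.22 for miR-200a-3p (SE 0.207) and 0.29 for miR-429-3p (SE 0.217), with edgeR adjusted p values of the 5 members with an estimate from 0.735 to 1.00. For *Zeb1 200H* the differences of the guides ranged from −0.20 to −0.11, and the edgeR adjusted p values of the members from 0.659 to 0.984. The differences furthest from 0 were those of miR-200a-5p, at −1.78 in *Zeb1 200M* (SE 1.254, edgeR, adjusted p = 0.735) and −1.80 in *Zeb1 200H* (SE 1.253, edgeR, adjusted p = 0.659), or −2.17 and −2.18 without virgin WT replicate 1 (edgeR, adjusted p = 0.636 and 0.740). They rest on 1 read in each mutant group of the breeding trial. Without virgin WT replicate 1, the differences in *Zeb1 200M* were 0.07, 0.04 and 0.39 for miR-200b-3p, miR-200a-3p and miR-429-3p, and in *Zeb1 200H* −0.08, −0.30 and −0.08. EdgeR again called 0 miRNAs in both.

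The passenger strands were scarce in the breeding trial cohort. MiR-200b-5p had 17, 16, 10 and 23 reads in WT, 2, 2 and 3 in *Zeb1 200H*, and 3, 0 and 2 in *Zeb1 200M*. Every mutant library had fewer reads than every WT library. Over the summed counted reads, its level in *Zeb1 200M* was 12.3% of WT (95% exact interval 3.87–30.2), and in *Zeb1 200H* 19.2% (7.41–41.7). These intervals cover counting error only. In edgeR, miR-200b-5p was the passenger called in both comparisons with WT (adjusted p = 1.97e-05 in *Zeb1 200M* and 1.80e-04 in *Zeb1 200H*). It passed the expression filter through its reads in WT alone, so its entry into these tests depended on the group where it was high.

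MiR-200a-5p had 9, 7, 8 and 15 reads in WT, 0, 0 and 1 in *Zeb1 200H*, and 1, 0 and 0 in *Zeb1 200M*. The mutant libraries were low without overlap, and the strand did not pass the expression filter. Its summed level was 4.17% of WT in *Zeb1 200M* (95% exact interval 0.103–24.6) and 4.63% in *Zeb1 200H* (0.114–27.4). MiR-429-5p had 0 reads in all 10 breeding trial libraries, among 1180255 counted reads, of which 3 reads would be 2.54 CPM.

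In the deeper virgin cohort, miR-200b-5p was at 109, 92.5 and 92.7 CPM in WT, at 17.9, 17.4, 18.9 and 15.7 CPM in *Zeb1 200H*, and at 12.4, 11.04, 13.9 and 13.8 CPM in *Zeb1 200M*. The 3 genotypes did not overlap, with *Zeb1 200M* lowest. MiR-200a-5p was at 57.4, 41.3 and 44.0 CPM in WT, at 8.77, 8.35, 10.5 and 7.72 CPM in *Zeb1 200H*, and at 7.42, 7.68, 7.17 and 9.45 CPM in *Zeb1 200M*. WT was high without overlap, while the mutant genotypes overlapped. MiR-429-5p had 36, 40 and 39 reads in WT, 3, 2, 5 and 4 in *Zeb1 200H*, and 4, 6, 1 and 5 in *Zeb1 200M*. Its WT libraries lay above all mutant libraries, and the mutant genotypes overlapped.

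With all virgin WT libraries, miR-200b-5p had a log2 fold change of −3.39, miR-200a-5p of −3.04 and miR-429-5p of −4.17 in *Zeb1 200M*, and −3.02, −2.58 and −3.40 without WT replicate 1. In *Zeb1 200H* they were −2.88, −2.83 and −4.27, and −2.53, −2.39 and −3.54 without it. EdgeR called each of these in both fits, and WT replicate 1 moved miR-429-5p most among the 3 strands. MiR-429-5p passed the filter of these fits through its reads in WT alone. Between *Zeb1 200M* and *Zeb1 200H*, miR-200b-5p differed by −0.51 (SE 0.128, edgeR, adjusted p = 0.0811), lower in 4 of 4 libraries but not past the threshold. MiR-200a-5p differed by −0.21 (SE 0.160, edgeR, adjusted p = 0.760), and miR-429-5p did not pass the expression filter.

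Within each hairpin, the 3p strand outnumbered the 5p strand in all 21 libraries. Over the virgin libraries of all genotypes, the 5p strand made up 1.00% of the reads of the *Mir200b* hairpin, 0.499% of *Mir200a* and 0.117% of *Mir429*. The 5p share of *Mir200b* was 1.07% in virgin WT (95% exact interval 1.02–1.11), 0.901% in *Zeb1 200H* (0.835–0.971) and 0.895% in *Zeb1 200M* (0.818–0.977). In WT replicates 2 and 4 alone it was 0.970% (0.926–1.01), whose interval overlaps with those of both mutant genotypes. In the breeding trial cohort it was 1.19% in WT (0.921–1.51), 1.18% in *Zeb1 200H* (0.477–2.43) and 0.924% in *Zeb1 200M* (0.301–2.14). All of these intervals leave out the spread between mice.

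The ratio of 5p to 3p reads of *Mir200b* was 1.97% in virgin WT replicate 1, against 0.966% and 0.996% in WT replicates 2 and 4 and 0.8291–1.03% in the 8 mutant libraries. WT and mutant libraries overlapped in this ratio. For *Mir429* it was 0.444%, 0.0954% and 0.112% in WT, 0.0498%, 0.0374%, 0.0602% and 0.0831% in *Zeb1 200H*, and 0.101%, 0.177%, 0.0324% and 0.125% in *Zeb1 200M*. Each *Zeb1 200H* library lay below each WT library, and *Zeb1 200M* overlapped with both. For *Mir200a* the ratios were 0.648%, 0.450% and 0.469% in WT, 0.451%, 0.495%, 0.526% and 0.456% in *Zeb1 200H*, and 0.529%, 0.601%, 0.531% and 0.654% in *Zeb1 200M*. *Zeb1 200M* was above *Zeb1 200H* in 4 of 4 libraries, and WT overlapped with both.

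Among 9 exact permutation tests of arm ratios in the virgin cohort, 0 passed an adjusted p of 0.05, and 2 had an unadjusted exact p below 0.05. Those were *Mir429* in *Zeb1 200H* against WT, with a log2 difference of −1.41 (exact p = 0.0286, adjusted p = 0.075), and *Mir200a* in *Zeb1 200M* against *Zeb1 200H*, with 0.26 (exact p = 0.0286, adjusted p = 0.075). Without WT replicate 1, the *Mir429* difference was −0.71 (exact permutation test, adjusted p = 0.231). The smallest exact p that 3 libraries against 4, or 4 against 4, can give is 0.0286. Both tests named above had that p and full separation of their groups, and still an adjusted p of 0.075. The count of 0 therefore does not show that arm ratios were unchanged.

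**Figure D2:**
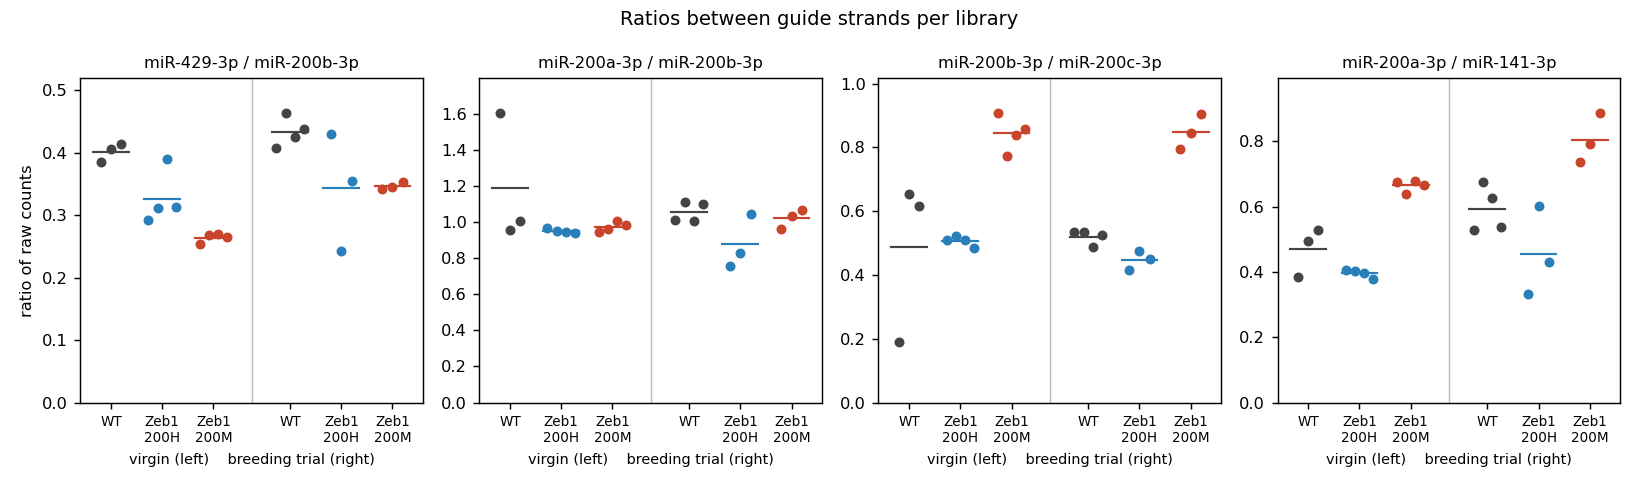
Ratios of raw counts of guide strands in every library, within the cluster (miR-429-3p or miR-200a-3p over miR-200b-3p) and against the guide of the same seed from the cluster of miR-200c and miR-141. Bars mark group means.

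The 3 guides did not keep the same proportions in each genotype. In the virgin cohort, the ratio of miR-429-3p to miR-200b-3p was 0.385, 0.405 and 0.414 in WT, 0.292, 0.311, 0.390 and 0.312 in *Zeb1 200H*, and 0.253, 0.267, 0.270 and 0.265 in *Zeb1 200M*. *Zeb1 200M* was low without overlap with either group, and *Zeb1 200H* replicate 3 fell within the WT range. Breeding trial libraries had this ratio at 0.408, 0.463, 0.425 and 0.437 in WT, 0.430, 0.243 and 0.355 in *Zeb1 200H*, and 0.341, 0.344 and 0.354 in *Zeb1 200M*. *Zeb1 200M* was again below WT without overlap, and the *Zeb1 200H* libraries spread across both, lower than the WT library of equal number in 2 of 3 pairs.

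Over both cohorts, with genotype labels permuted within each, the mean log2 difference of this ratio between *Zeb1 200M* and WT was −0.46 (exact permutation p = 8.16e-04, the smallest that the relabellings can give, adjusted p = 0.00857). The virgin cohort gave −0.61 and the older mice of the breeding trial −0.32, lower in 7 of 7 *Zeb1 200M* libraries, and it was called whichever of 14 libraries was left out. For *Zeb1 200H* against WT the difference was −0.34 (exact permutation p = 0.00816, adjusted p = 0.0343). The adjusted exact p was 0.065 without breeding trial WT replicate 2 or 4, 0.06 without breeding trial *Zeb1 200H* replicate 3 and 0.07 without virgin WT replicate 4. Between *Zeb1 200M* and *Zeb1 200H* it was −0.12 (exact permutation p = 0.391, adjusted p = 0.484), with −0.30 and no overlap among virgin libraries and 0.06 among those of the breeding trial. Without breeding trial *Zeb1 200H* replicate 3, which had the lowest ratio of all 21 libraries, this difference was −0.24 and was called (exact permutation test, adjusted p = 0.0075), and without replicate 1 of the same group it was −0.03 (exact permutation test, adjusted p = 0.876).

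The ratio of miR-200a-3p to miR-200b-3p in the virgin cohort was 1.60, 0.957 and 1.01 in WT, 0.967, 0.951, 0.944 and 0.939 in *Zeb1 200H*, and 0.944, 0.959, 1.00 and 0.984 in *Zeb1 200M*. WT replicate 1 was high, and the other virgin libraries overlapped. Among breeding trial libraries it was 1.01, 1.11, 1.00 and 1.10 in WT, 0.755, 0.831 and 1.04 in *Zeb1 200H*, and 0.961, 1.03 and 1.07 in *Zeb1 200M*. The groups overlapped, but replicate numbers may mark pairs of *Zeb1 200H* and WT there, and within the pairs of equal number (1, 3 and 4) this ratio was lower in *Zeb1 200H* in 3 of 3.

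For *Zeb1 200H* against WT, the mean log2 difference of this ratio over both cohorts was −0.28 (exact permutation p = 0.0098, adjusted p = 0.0343). Without virgin WT replicate 1 it was −0.16 (exact permutation test, adjusted p = 0.0686). It also missed the threshold without virgin WT replicate 4 (adjusted exact p = 0.096), without virgin *Zeb1 200H* replicate 2, 3 or 4 (0.06 each), without breeding trial WT replicate 2 or 4 (0.065 each), and without breeding trial *Zeb1 200H* replicate 1 (0.075) or 3 (0.06). *Zeb1 200M* against WT gave −0.15 (exact permutation p = 0.0914, adjusted p = 0.175), and −0.03 without virgin WT replicate 1 (exact permutation test, adjusted p = 0.435). Against *Zeb1 200H* it gave 0.13 (exact permutation p = 0.129, adjusted p = 0.208), with 0.20 without breeding trial *Zeb1 200H* replicate 4 (exact permutation test, adjusted p = 0.04) and 0.08 without its replicate 1 (exact permutation test, adjusted p = 0.358).

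The ratio of miR-429-3p to miR-200a-3p in the virgin cohort was 0.240, 0.423 and 0.411 in WT, 0.302, 0.327, 0.412 and 0.333 in *Zeb1 200H*, and 0.268, 0.279, 0.269 and 0.269 in *Zeb1 200M*. WT replicate 1 was the lowest of these libraries, and *Zeb1 200M* lay below *Zeb1 200H* and the other WT libraries. Of the breeding trial, the ratios were 0.404, 0.417, 0.423 and 0.396 in WT, 0.570, 0.292 and 0.340 in *Zeb1 200H*, and 0.355, 0.333 and 0.332 in *Zeb1 200M*. *Zeb1 200M* was below WT without overlap, and *Zeb1 200H* spanned both, lower than the WT library of equal number in 2 of 3 pairs.

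For *Zeb1 200M* against WT, the mean log2 difference of this ratio over both cohorts was −0.31 (exact permutation p = 0.00816, adjusted p = 0.0343), and −0.45 without virgin WT replicate 1 (exact permutation test, adjusted p = 0.008). It missed the threshold without virgin WT replicate 2 (adjusted exact p = 0.09) or 4 (0.0971), without virgin *Zeb1 200M* replicate 1 or 3 (0.0788 each), 2 (0.0857) or 4 (0.09), and without breeding trial WT replicate 2 (0.065) or 4 (0.06). *Zeb1 200H* against WT gave −0.06 (exact permutation p = 0.719, adjusted p = 0.755). *Zeb1 200M* against *Zeb1 200H* gave −0.25 (exact permutation p = 0.0829, adjusted p = 0.174), with −0.35 without breeding trial *Zeb1 200H* replicate 3 (exact permutation test, adjusted p = 0.012) and −0.11 without its replicate 1 (exact permutation test, adjusted p = 0.358).

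As shares of all cluster reads, miR-200b-3p, miR-200a-3p and miR-429-3p held means of 39.9%, 42.1% and 17.3% in breeding trial WT, 44.9%, 39.1% and 15.3% in *Zeb1 200H*, and 42.0%, 42.8% and 14.6% in *Zeb1 200M*. In the virgin cohort they held 38.7%, 44.9% and 15.6% in WT, 43.7%, 41.5% and 14.2% in *Zeb1 200H*, and 44.4%, 43.2% and 11.7% in *Zeb1 200M*. Virgin WT replicate 1 alone held 33.1%, 53.1% and 12.7%. MiR-429-3p was the least abundant guide in 21 of 21 libraries, while miR-200a-3p exceeded miR-200b-3p in 10 of 21, among them 4 of 4 breeding trial WT and 2 of 3 virgin WT libraries.

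Set against the cluster of miR-200c and miR-141, the 3 guides summed to 0.315, 0.683 and 0.687 times miR-200c-3p plus miR-141-3p in virgin WT, 0.520, 0.529, 0.537 and 0.495 in *Zeb1 200H*, and 0.880, 0.797, 0.850 and 0.851 in *Zeb1 200M*. *Zeb1 200M* was high without overlap, and *Zeb1 200H* lay between WT replicate 1 and the other WT libraries. The summed ratio in the breeding trial cohort was 0.638, 0.733, 0.663 and 0.643 in WT, 0.466, 0.594 and 0.516 in *Zeb1 200H*, and 0.900, 0.956 and 1.05 in *Zeb1 200M*. The 3 genotypes did not overlap, with *Zeb1 200M* high and *Zeb1 200H* low.

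Guides of the same seed were compared between the clusters after the summed ratio had been seen to part the genotypes, so their differences are described without a test. The ratio of miR-200b-3p to miR-200c-3p was 0.188, 0.655 and 0.616 in virgin WT, 0.508, 0.522, 0.510 and 0.484 in *Zeb1 200H*, and 0.907, 0.773, 0.838 and 0.857 in *Zeb1 200M*. *Zeb1 200M* was high without overlap, and WT replicate 1 was the lowest library. In the breeding trial cohort it was 0.533, 0.535, 0.486 and 0.526 in WT, 0.415, 0.474 and 0.451 in *Zeb1 200H*, and 0.796, 0.846 and 0.904 in *Zeb1 200M*. The 3 genotypes did not overlap, in the order *Zeb1 200M*, WT, *Zeb1 200H* from high to low.

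Over both cohorts, the mean log2 difference of miR-200b-3p to miR-200c-3p was 0.85 for *Zeb1 200M* against WT, and 0.56 without virgin WT replicate 1. For *Zeb1 200M* against *Zeb1 200H* it was 0.83. *Zeb1 200M* was higher in 7 of 7 libraries in both comparisons. *Zeb1 200H* against WT gave 0.02, and −0.27 without virgin WT replicate 1.

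The ratio of miR-200a-3p to miR-141-3p was 0.385, 0.496 and 0.530 in virgin WT, 0.407, 0.403, 0.395 and 0.378 in *Zeb1 200H*, and 0.677, 0.639, 0.678 and 0.667 in *Zeb1 200M*. *Zeb1 200M* was high without overlap, and *Zeb1 200H* overlapped with WT through WT replicate 1. Breeding trial ratios were 0.527, 0.677, 0.626 and 0.539 in WT, 0.332, 0.601 and 0.430 in *Zeb1 200H*, and 0.738, 0.791 and 0.887 in *Zeb1 200M*. *Zeb1 200M* was again high without overlap. *Zeb1 200H* overlapped with WT as a group, and was lower than the WT library of equal number in 3 of 3 pairs.

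The mean log2 difference of miR-200a-3p to miR-141-3p was 0.48 for *Zeb1 200M* against WT and 0.81 against *Zeb1 200H*, higher in 7 of 7 libraries. Without virgin WT replicate 1, the value against WT was 0.41. *Zeb1 200H* against WT gave −0.33, and −0.40 without virgin WT replicate 1.

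Across the 21 libraries, with each cohort's mean subtracted from log2 CPM, Pearson's r was 0.989 between miR-200b-3p and miR-200a-3p, 0.991 between miR-200b-3p and miR-429-3p, and 0.983 between miR-200a-3p and miR-429-3p (n = 21). These values are descriptions, since WT and mutant libraries lie at separate levels and r largely follows that. With the summed guides of the cluster, miR-141-3p had an r of 0.966 and miR-200c-3p of 0.9505 (n = 21). Of ZEB-linked names, miR-205-5p had 0.976, above both, miR-96-5p 0.965, miR-182-5p 0.933, miR-183-5p 0.929, miR-34a-5p 0.365 and miR-150-5p −0.612 (n = 21 each). No r is given for miR-203-3p, also ZEB-linked, whose means were 157, 205 and 195 CPM in virgin WT, *Zeb1 200H* and *Zeb1 200M*. In the breeding trial cohort its means were 109, 147 and 106 CPM in the same order. Outside both clusters and the ZEB-linked list, the most alike of 370 names compared were miR-335-3p (r = 0.836), miR-375-3p (0.832), miR-335-5p (0.814), miR-494-3p (0.739) and miR-151-5p (0.726), each with n = 21. Without virgin WT replicate 1, the r of these 5 lay between 0.699 and 0.877. Of them, miR-375-3p was the most abundant, with mean levels of 127759 CPM in breeding trial WT, 95701 in *Zeb1 200H* and 97453 in *Zeb1 200M*.

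A list of 7 ZEB-linked miRNAs (miR-205-5p, miR-203-3p, miR-183-5p, miR-96-5p, miR-182-5p, miR-34a-5p and miR-150-5p) was read in the same edgeR fits as the cluster. In the breeding trial cohort, 5 of 7 were called lower for *Zeb1 200M* and 4 of 7 for *Zeb1 200H* against WT, 0 of 6 tested between the mutant genotypes, and 0 were called higher in any of the 3 comparisons. Over all miRNAs of these fits, 43 of 276 were called lower for *Zeb1 200M* and 19 of 267 for *Zeb1 200H*. For *Zeb1 200H* against WT, where replicate numbers may mark pairs, the fit with the number as a block called 5 of 7 lower, with miR-34a-5p added at −0.61 (edgeR, adjusted p = 0.0229, against 0.0801 without the block). In the virgin cohort, 4 of 7 were called lower in each mutant genotype against WT, and 2 of 7 between them (miR-183-5p and miR-34a-5p), where 26 of 678, 23 of 672 and 10 of 675 of all miRNAs were called lower. In the common fit of 3 genotypes, edgeR called neither miR-183-5p (adjusted p = 0.0551) nor miR-34a-5p (adjusted p = 0.228) between the mutant genotypes. When virgin WT replicate 1 was left out, 5 of 7 were called lower in *Zeb1 200M* (miR-34a-5p among them) and 4 of 7 in *Zeb1 200H*. MiR-150-5p was then called higher in both. Of all miRNAs in these fits, 74 of 703 were called lower and 94 higher in *Zeb1 200M*, and 77 of 699 lower and 74 higher in *Zeb1 200H*. Median log2 fold changes of the list were −1.73 in *Zeb1 200M* and −1.59 in *Zeb1 200H* of the breeding trial cohort, beside −3.05 and −2.66 for the cluster members tested. The most abundant of the list in breeding trial WT, miR-205-5p, went from 3092 CPM in WT to 363 in *Zeb1 200H* and 447 in *Zeb1 200M*, with edgeR log2 fold changes of −3.22 and −2.98.

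Lists of miRNAs typical of cell types of the gland and of other cells were read beside the cluster, and their part in the result was not tested. The share of all miRNAs that was called differed between these fits, from 1.09% to 35.9% over the 6 comparisons, with 56 of 276 called higher in breeding trial and 18 of 678 in virgin *Zeb1 200M* against WT. Without virgin WT replicate 1, 23.9% and 21.6% were called in virgin *Zeb1 200M* and *Zeb1 200H* against WT, and the lists' counts in these comparisons moved as well. Of 3 pituitary endocrine miRNAs, 2 were called lower in breeding trial *Zeb1 200M* and 1 in *Zeb1 200H* against WT, and 0 in the other 4 comparisons. Of all miRNAs tested, 43 of 276 were called lower in breeding trial *Zeb1 200M* and 19 of 267 in *Zeb1 200H* against WT. With the replicate number as a block, edgeR called 42 of 271 miRNAs in breeding trial *Zeb1 200H* against WT. Among them, miR-7a-5p was lower and the erythroid miR-144-3p higher as well. In CPM without TMM, miR-7a-5p had a mean of 122138 in WT and 123442 in *Zeb1 200H*, so its direction there depends on the scaling. In breeding trial *Zeb1 200M* against WT with the block (84 of 270 called), 2 vascular and stromal, 3 leukocyte and 0 erythroid miRNAs were called higher by edgeR (113 at an unadjusted p below 0.05). The block was not fitted in DESeq2. The neuronal call between breeding trial mutant genotypes and the vascular and stromal call in virgin *Zeb1 200M* against WT were lost with the block. MiR-375-3p was called lower in both virgin comparisons with WT when WT replicate 1 was left out. The endocrine miR-7b-5p did not have a lower mean CPM in either mutant genotype. Its means were 50467 in WT, 55336 in *Zeb1 200H* and 50804 in *Zeb1 200M* of the breeding trial, and 45385, 55308 and 53867 in the virgin cohort. Summed, the 3 endocrine miRNAs stood at 300364 CPM in WT, 274480 in *Zeb1 200H* and 253305 in *Zeb1 200M* of the breeding trial cohort (miR-375-3p the most abundant in WT), and at 303840, 264773 and 250995 in the virgin cohort (miR-7a-5p). Virgin WT replicate 1 had 368951 CPM, and replicates 2 and 4 had a mean of 271285. In the same 2 libraries, means of the other lists were 2092 CPM (neuronal), 8069.8 (vascular and stromal), 1188 (leukocyte), 8099 (erythroid), 139 (oligodendrocyte) and 6.64 (muscle). Of 4 neuronal miRNAs, 3 of them tested in the breeding trial cohort, 2 were called higher in *Zeb1 200M* and 1 in *Zeb1 200H* against WT there, and 1 in each of the other 4 comparisons, or 3 in both virgin comparisons with WT when WT replicate 1 was left out. Their sums were 2104, 5508 and 9639 CPM in the breeding trial and 1704, 5072 and 7210 CPM in the virgin cohort, for WT, *Zeb1 200H* and *Zeb1 200M*, with miR-124-3p the most abundant.

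Of 4 vascular and stromal miRNAs, 4 were called higher in breeding trial and 1 in virgin *Zeb1 200M* against WT, and 0 in the other 4 comparisons. With virgin WT replicate 1 left out, 1 was called higher in both virgin comparisons with WT. In the order WT, *Zeb1 200H*, *Zeb1 200M*, they summed to 10307, 13561 and 15239 CPM in the breeding trial and 8029, 10086 and 10904 CPM in the virgin cohort, with miR-126a-3p the most abundant. Of 4 leukocyte miRNAs, 2 were called higher in breeding trial *Zeb1 200M* against WT and 0 elsewhere, with sums of 786, 1086 and 1661 CPM and, in the virgin cohort, 1057, 1491 and 1484 CPM (miR-142a-3p the most abundant). When virgin WT replicate 1 was left out, miR-150-5p was called higher in virgin *Zeb1 200M*, and miR-150-5p and miR-223-3p in virgin *Zeb1 200H*. Of 3 erythroid miRNAs, 2 of them tested in the breeding trial cohort, 1 was called higher there in *Zeb1 200M* against WT and 0 elsewhere, also without virgin WT replicate 1, with sums of 6518, 7613 and 8683 CPM and, in the virgin cohort, 7051, 11384 and 9335 CPM (miR-451a). The 1 oligodendrocyte miRNA, miR-219a-5p, was called in 0 comparisons, also without virgin WT replicate 1, with 182, 196 and 270.0 CPM in the breeding trial and 156, 145 and 128 CPM in the virgin cohort. Of 3 muscle miRNAs, at most 2 were tested in a virgin and 0 in a breeding trial comparison, and 0 were called, with 1, 3, 0 and 6 reads in WT, 1, 1 and 4 in *Zeb1 200H* and 1, 0 and 0 in *Zeb1 200M* of the breeding trial, and sums of 6.17, 20.02 and 30.9 CPM in the virgin cohort (miR-1a-3p). Called higher without virgin WT replicate 1 were 2 of 2 tested in virgin *Zeb1 200M* (94 of 703 of all miRNAs) and 1 of 1 in *Zeb1 200H* (74 of 699). MiR-206-3p had virgin means of 0.155 CPM in WT and 1.43 CPM in *Zeb1 200M*. Against WT it was tested in *Zeb1 200M* alone, where it passed the filter through the group where it was high. MiR-133a-5p was at 0 in all 21 libraries, miR-206-3p in 9 of 10 and miR-1a-3p in 4 of 10 breeding trial libraries.

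The mature sequences below are those of RefSeq on GRCm38.p6, and capitals mark the seed, bases 2 to 8 from the 5′ end. The first 3 guides share the seed AAUACUG, and the next pair shares AACACUG. On the minus strand, the guides of the cluster lie at chr4:156055685-156055706 (miR-200b-3p), chr4:156054911-156054932 (miR-200a-3p) and chr4:156053916-156053937 (miR-429-3p).

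miR-200b-3p: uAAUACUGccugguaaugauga

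miR-429-3p: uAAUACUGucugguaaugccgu

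miR-200c-3p: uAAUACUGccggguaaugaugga

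miR-200a-3p: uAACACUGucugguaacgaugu

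miR-141-3p: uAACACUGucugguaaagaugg

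miR-200b-5p: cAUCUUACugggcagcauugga

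miR-200a-5p: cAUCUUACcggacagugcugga

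miR-429-5p: gUCUUACCagacaugguuaga

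Counted from the 5′ end, miR-429-3p differs from miR-200b-3p by C9U, A19C, U20C and A22U, of which 1 lies in the first 18 bases that assigned a breeding trial read and 2 in the first 19 that assigned a virgin read. MiR-200a-3p differs from miR-200b-3p by U4C, C9U, U17C and A22U. From miR-200b-3p to miR-200c-3p the differences are U11G and A22G, and from miR-200a-3p to miR-141-3p C17A and U22G, so 1 base within the counted length parts each of these pairs. The passengers miR-200b-5p and miR-200a-5p share the seed AUCUUAC, and miR-429-5p does not.

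**Figure D3:**
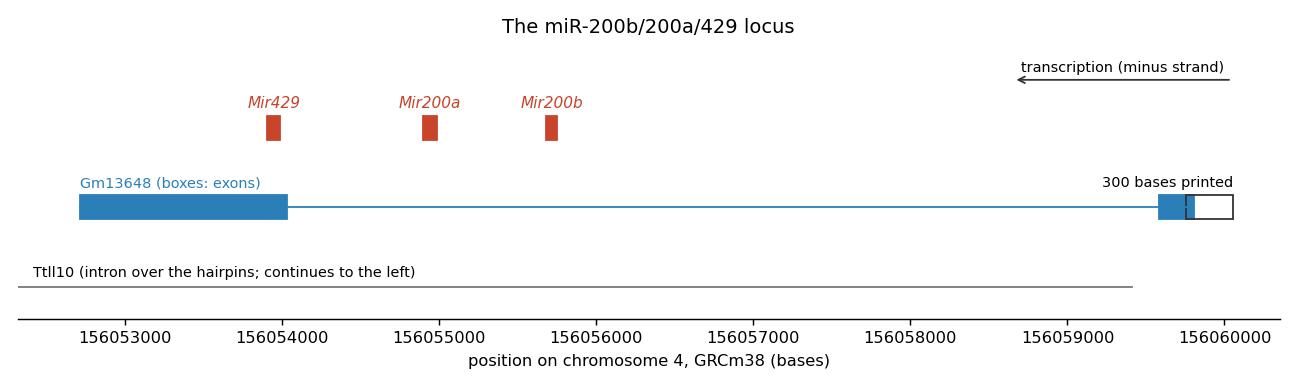
The cluster on chromosome 4 (GRCm38), with the 3 hairpins, the exons of *Gm13648*, the intron of *Ttll10* and the promoter window that was searched for the ZEB1 motif.

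The hairpins lie in the order *Mir200b* (chr4:156055681-156055750), *Mir200a* (chr4:156054896-156054985) and *Mir429* (chr4:156053905-156053987) in the direction of transcription, with 695 and 908 bases between neighbours. From the annotated start of *Gm13648* (chr4:156052715-156059802, minus strand), *Mir200b* begins 4052, *Mir200a* 4817 and *Mir429* 5815 bases downstream. Capitals in the hairpins mark the mature arms, the 5p arm first, with 14 bases between the arms in *Mir200b* and 16 each in *Mir200a* and *Mir429*.

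Mir200b: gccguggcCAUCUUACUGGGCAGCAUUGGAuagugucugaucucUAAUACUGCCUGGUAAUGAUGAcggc

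Mir200a: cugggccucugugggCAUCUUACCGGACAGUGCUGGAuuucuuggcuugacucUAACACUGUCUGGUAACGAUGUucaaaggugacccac

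Mir429: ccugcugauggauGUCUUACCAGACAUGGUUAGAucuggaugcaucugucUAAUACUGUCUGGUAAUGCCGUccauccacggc

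The window from 250 bases before to 50 bases after the annotated start of *Gm13648* (chr4:156059753-156060052, minus strand) was searched on both strands for CACCTG, an E-box that ZEB1 binds, and for the further form CAGGTA of its motif, and matches are in capitals. CACCTG occurs 2 times, 118 and 72 bases before the start, while its reverse complement CAGGTG occurs 0 times, as does CAGGTA on either strand. Of 32851 such windows of annotated genes, 20.2% hold CACCTG at least 1 time on either strand and 2.88% at least 2 times, and 29.5% and 5.81% hold 1 or 2 matches or more of either form. A match is a description and does not show binding.

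Gm13648 promoter: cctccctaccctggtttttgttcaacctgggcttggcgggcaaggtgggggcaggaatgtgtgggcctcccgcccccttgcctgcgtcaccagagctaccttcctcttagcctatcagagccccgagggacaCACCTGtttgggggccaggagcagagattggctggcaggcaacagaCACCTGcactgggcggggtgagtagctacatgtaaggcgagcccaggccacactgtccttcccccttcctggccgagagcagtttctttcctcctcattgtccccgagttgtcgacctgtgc

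The counts are of mature strands alone, so transcription of the cluster, its processing and the stability of its strands cannot be told apart. With 60037 to 191650 counted reads a library, the breeding trial cohort gives few reads for the passengers, and arm ratios were tested in the virgin cohort alone. The counts do not show which cells of the gland hold the cluster. Guides that differ by 1 base in the counted length rest on that base being read correctly. Comparisons with WT within a cohort share its WT libraries, and the virgin WT group rests on 3 libraries, of which replicate 1 stood apart.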

How the data were processed

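Small RNA from 21 pituitaries, 1 library each, was analysed. The authors trimmed adapters with cutadapt, assigned reads by their start with a miRNA dictionary (the first 19 bases in the virgin, 18 in the breeding trial cohort), and deposited 6 tables with the raw count of reads per miRNA and library, which is the unit used here. Each of the 21 libraries is deposited in more than 1 table, with identical counts. The 42 columns that the authors scaled by DESeq2 size factors (DESeq2 1.38.3 for the virgin cohort), and their fold change and p columns, were not used. Counted reads ranged from 3816917 to 10806313 in the virgin and from 60037 to 191650 in the breeding trial cohort, where 3 reads are 15.7 to 50.0 CPM, so strands and lists below that level there are given as reads. CPM is the raw count scaled to the counted reads of the library, without TMM.

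Each pair of genotypes within a cohort was fitted over all miRNAs in edgeR 4.0.16 (R 4.3.3) with the quasi-likelihood F test, TMM scaling and the expression filter (minimum count 10, minimum total 15). The Benjamini-Hochberg adjustment ran over each fit's tested miRNAs, and a miRNA is called at an adjusted p below 0.05. SE is the size of the log2 fold change over the square root of F. The difference between cohorts was tested in edgeR as an interaction over names shared by both dictionaries. Log2 ratios of counts were compared by two-sided exact permutation tests, for guides with labels permuted within each cohort and differences combined over both, for arms in the virgin cohort with 0.5 added to each count, and adjusted over 21 planned tests. The 6 ratios between guides of the same seed were chosen after the data were seen, and no p is given for them. The 12 planned guide tests include 3 of the summed guides, for which no p is given. These 3 still entered the adjustment over the 21 tests, so the adjusted p values of the others depend on them. Shares and ratios of few reads have exact 95% binomial intervals (scipy 1.17.1, Python 3.11.15). Values are mean ± SD unless stated.

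The named miRNAs are the 6 members, the strands of miR-200c and miR-141, a list of ZEB-linked miRNAs, lists for cell types, and the 5 others whose log2(CPM + 1), with cohort means subtracted, correlated best with the summed guides, among names with at least 10 CPM on average in each cohort. The members and the lists were chosen with earlier results of these data known. Sequences, coordinates of hairpins and strands, and promoters are from RefSeq GRCm38.p6. The extent and exons of *Gm13648*, the intron of *Ttll10* and the distances of the hairpins from the start of *Gm13648* follow GENCODE transcripts. For a name that the dictionary splits into entries, levels are summed and the call is that of the entry with the smaller p. Both tests were tested on simulated data with known changes.

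Whether equal replicate numbers mark pairs was checked on miRNAs with a mean of at least 50 counts with genotype means subtracted. For breeding trial *Zeb1 200H* against WT, r between libraries with equal numbers was 0.197 to 0.329 in each of 3 pairs, and numbers may mark pairs there. With the number as a block, this comparison called 42 miRNAs instead of 32, and 4 members in both. The permutation tests of ratios did not use pairs. Elsewhere, at least 1 pair of equal numbers had an r below 0.1. Alternatives tried were DESeq2 1.42.0, its type of size factors for scaling in edgeR, TMM computed on other miRNAs than miR-200, no filter, 1 fit for all genotypes of a cohort, the replicate block, other pseudocounts, each cohort alone, TMM-scaled levels, and leaving out each library in turn. Percents of WT, arm shares, list calls and list sums without virgin WT replicate 1, list calls with the block and the motif CAGGTA were added after the data were seen.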

Additional observations from a re-analysis of the deposited data

Results flagged for a closer look

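A pair of values came from a library far from the others of its group. The level of miR-429-3p in virgin *Zeb1 200H* replicate 3 was 824 CPM, against 551 to 587 CPM in the other *Zeb1 200H* libraries. The ratio of miR-429-3p to miR-200a-3p in virgin *Zeb1 200M* replicate 2 was 0.279, against 0.268 to 0.269 in the other *Zeb1 200M* libraries. Of 41 groups of 4 or more libraries looked at, 2 held such a library, and chance gives about 1 in 20.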

How the results depend on the processing

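The cluster's calls against WT held under every alternative tried (another tool, other scalings, no filter, a common fit, the replicate block and each library left out), with 6 of 6 members in both virgin comparisons and 4 of 4 in both breeding trial comparisons (5 of 5 without the filter). In the breeding trial comparisons, DESeq2 gave miR-200a-5p no adjusted p. With the filter, these counts include a passenger that passed it through WT alone, miR-429-5p in the virgin and miR-200b-5p in the breeding trial cohort. Without the filter, where that entry plays no part, 6 of 6 and 5 of 5 were called. Of all miRNAs without the filter, edgeR called 46 of 1318 in virgin *Zeb1 200M* and 40 of 1339 in virgin *Zeb1 200H* against WT. In the breeding trial these were 94 of 709 and 32 of 690. DESeq2 called 87 of 654 and 66 of 560 of all miRNAs in the virgin comparisons, and 72 of 283 and 25 of 289 in those of the breeding trial, in the same order. Of the members' log2 fold changes, 364 values from alternatives kept their direction and their side of the threshold. The exceptions were 2, miR-200b-3p and miR-200a-3p between the virgin mutant genotypes in the common fit, where edgeR called 1 member in place of 3.

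The number of all miRNAs called moved more than that of members. For virgin *Zeb1 200M* against WT (44), it was 87 with DESeq2, 90 in the common fit and 25 to 168 when each library was left out, with 168 without WT replicate 1. For virgin *Zeb1 200H* against WT (34), it was 66, 67 and 21 to 151 in the same order, with 151 without WT replicate 1. Between the virgin mutant genotypes (15), it was 5 in the common fit, and between those of the breeding trial (3) it was 3 to 5 when each library was left out. The cause was not tested.

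With the replicate number as a block, the pairing gave 20 miRNAs in edgeR for virgin *Zeb1 200M* and 18 for virgin *Zeb1 200H* against WT, and 0 between the breeding trial mutant genotypes, while 6, 6 and 0 members were called.

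Of the 9 tests of ratios between guides, 4 were called. When each library was left out, 1 to 5 were. In the virgin cohort alone 0 were, and in the breeding trial cohort alone 0, but the smallest exact p of 1 cohort is 0.0286 before adjustment (0.1 between the breeding trial mutant genotypes), so these counts say nothing about stability. Over all leave-outs of a library, called planned ratio differences missed the threshold 21 times, and others newly passed it with the same sign 3 times. A difference is counted again for each library whose removal moved it. Under TMM scaling, 10 mean levels moved by more than 1 SD and 26 did not. No called result changed sign. Depth limits the breeding trial passengers, with 0 reads of miR-429-5p.

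Among values not past the threshold or given without a test, there were 13 changes of sign, 12 of them when a library was left out. A value is counted again for each alternative that changed its sign. Given without a test was miR-200b-3p to miR-200c-3p, a ratio chosen after the data were seen, in *Zeb1 200H* against WT (0.02), at −0.27 without virgin WT replicate 1 and −0.27 to 0.18 over all leave-outs. MiR-429-3p to miR-200a-3p in *Zeb1 200H* against WT (−0.06) ranged from −0.20 to 0.039. The 5p to 3p ratio ranged from −1.04 to 0.070 for *Mir429* in *Zeb1 200M* and from −0.19 to 0.074 for *Mir200a* in *Zeb1 200H* against WT, and from −0.069 to 0.036 for *Mir200b* between mutant genotypes. MiR-429-3p to miR-200b-3p between mutant genotypes (−0.12) was 0.055 in the breeding trial alone. Without virgin WT replicate 1, the cohort difference of *Zeb1 200M* was 0.067 for miR-200b-3p (−0.01) and −0.18 for miR-200b-5p (0.14). The cause was not tested.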
